A study of Mus musculus with 2 samples.

Results

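The miR-181 family in the mouse comprises 6 microRNA genes, Mir181a-1, Mir181b-1, Mir181a-2, Mir181b-2, Mir181c and Mir181d, which lie in 3 clusters of 2 genes. They were chosen by their symbols in GENCODE release M21, and all 6 were found among the 2202 microRNA genes counted in heart tissue. The tissue came from female B6CASTF1/J mice aged 2 months, the first-generation hybrids of a C57BL/6J and a CAST/EiJ parent, and the labels name no engineered allele and no treatment. Short RNA, selected for a labelled size of under 30 (unit not given), was sequenced in 2 libraries, replicate 1 and replicate 2, which form a single group with no contrasting condition. Per the labels they are biological replicates from differently numbered females, yet 1 donor entry is cited for both. They were taken as 2 animals. Differences between these libraries may be technical, and the main p-values set them against counting error only.

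MicroRNAs are cut from a hairpin precursor, whose arms give a 5p and a 3p product, and the seed near the 5′ end of the product pairs with target messenger RNAs and lowers their output. The miR-181 family is best known from lymphocytes, where miR-181a tunes the sensitivity of the T cell receptor during thymic development. In mouse and human endothelium miR-181b represses an importin that carries NF-kappaB into the nucleus, and in rat heart muscle cells miR-181c has been found in mitochondria, where it represses a mitochondrially encoded cytochrome c oxidase subunit.

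The 6 genes encode only 4 different 5p sequences, and these are shown because the number of genes that make each one decides which reads can be placed on a single gene. All sequences are from RefSeq on GRCm38.p6, and mature sequences were matched for all 6 genes. Capitals mark the seed, bases 2 to 8.
mmu-miR-181a-5p: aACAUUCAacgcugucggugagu
mmu-miR-181b-5p: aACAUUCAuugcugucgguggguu
mmu-miR-181c-5p: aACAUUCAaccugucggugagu
mmu-miR-181d-5p: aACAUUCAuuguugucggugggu
All 4 share the seed ACAUUCA, which no gene outside the family carries in that table. The sequence of miR-181a-5p is made by both Mir181a-1 and Mir181a-2, and that of miR-181b-5p by both Mir181b-1 and Mir181b-2, while miR-181c-5p and miR-181d-5p each come from 1 gene. Counted from 1 at the 5′ end, with the base of the first-named sequence first, miR-181b-5p differs from miR-181a-5p by A9U, C10U and A21G and is 1 base longer. The sequence of miR-181d-5p differs from miR-181b-5p by C12U and lacks its last base. The sequence of miR-181c-5p equals miR-181a-5p with the base at position 11 left out.

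The 3p arms are shown because they tell the paralogs apart, with the seed in capitals as above.
mmu-miR-181a-1-3p: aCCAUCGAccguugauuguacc
mmu-miR-181a-2-3p: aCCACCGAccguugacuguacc
mmu-miR-181b-1-3p: cUCACUGAacaaugaaugcaa
mmu-miR-181b-2-3p: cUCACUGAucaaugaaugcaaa
mmu-miR-181c-3p: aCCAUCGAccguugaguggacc
mmu-miR-181d-3p: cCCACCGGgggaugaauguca
Each of these 6 sequences is made by 1 gene. From miR-181a-1-3p to miR-181a-2-3p the substitutions are U5C and U16C, and U5C lies in the seed, so these arms have different seeds. From miR-181b-1-3p to miR-181b-2-3p the only substitution is A9U, outside the seed, and both keep the seed UCACUGA. The 3p arms of Mir181a-1 and Mir181c have the same seed, CCAUCGA, and differ by U16G and U19G.

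The hairpins of the paralogs are shown with their longest shared stretch in capitals, since a read that lies wholly within it matches both genes.
Mir181a-1: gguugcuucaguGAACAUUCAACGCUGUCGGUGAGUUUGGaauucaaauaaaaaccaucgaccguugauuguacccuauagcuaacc
Mir181a-2: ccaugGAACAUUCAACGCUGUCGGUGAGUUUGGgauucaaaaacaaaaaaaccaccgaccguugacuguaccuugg
Mir181b-1: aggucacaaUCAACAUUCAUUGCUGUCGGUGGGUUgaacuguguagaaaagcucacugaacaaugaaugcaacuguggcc
Mir181b-2: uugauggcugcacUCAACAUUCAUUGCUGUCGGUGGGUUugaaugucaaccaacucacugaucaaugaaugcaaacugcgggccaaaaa
The stretch spans 28 bases in the Mir181a genes and holds the whole 23-base 5p sequence. In the Mir181b genes it spans 26 bases and ends on the last base of the 24-base 5p sequence, so the paralogs differ from the base just after it. Mir181d shares at most 13 bases with any of these 4 hairpins. No hairpin sequence was matched for Mir181c, so its shared stretches were not examined. The map of the hairpins shows these stretches over the 5p arms.

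**Figure D1:**
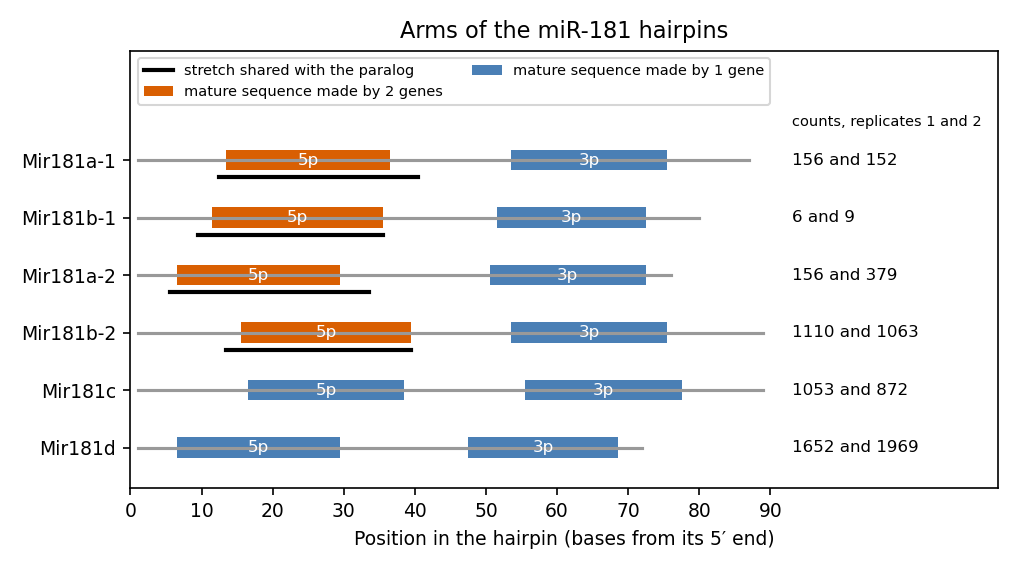
Map of the 6 miR-181 hairpins, with the position in bases from the 5′ end on the x axis and 1 row per gene. Boxes are the 5p and 3p arms, coloured by whether 2 genes or 1 gene make the mature sequence, black lines are the stretches of 28 or 26 bases shared between paralogs, and own-strand counts in replicates 1 and 2 stand at the right; the shared stretches cover the whole 5p arms of the Mir181a and Mir181b genes.

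In mm10, Mir181a-1 (chromosome 1, 137966455 to 137966541) and Mir181b-1 (137966639 to 137966718) lie on the plus strand with 97 bases between them. Both lie within the span of the non-coding gene Gm4258 and opposite the non-coding Gm26936. Mir181b-1 also lies within the span of the non-coding A430106G13Rik, which overlaps the last bases of Mir181a-1. Mir181a-2 (chromosome 2, 38852735 to 38852810) and Mir181b-2 (38853830 to 38853918) lie 1019 bases apart on the plus strand. Both lie opposite the span of Nr6a1, which encodes an orphan nuclear receptor, and Mir181b-2 also lies opposite Gm44144. Mir181d (chromosome 8, 84178716 to 84178787) and Mir181c (84178873 to 84178961) lie 85 bases apart on the minus strand. Both lie within the span of Nanos3, which encodes an RNA-binding protein of germ cells. No opposite-strand read was counted for any of the 6 genes in either library.

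Own-strand counts of all microRNA genes summed to 2424441 in replicate 1, of 8069273 reads, and to 2770301 in replicate 2, of 7995058 reads. A further 49.5% of reads in replicate 1 and 42.7% in replicate 2 had several mapping places and were assigned to no gene. Levels are given in CPM, the usual scaling of counts by each library's total, here its own-strand total, so that the limit allowed by a count of 0 (3 counts per library) stands at 1.24 CPM for replicate 1 and 1.08 CPM for replicate 2. The cardiac muscle list had 4 of 7 markers detected: Mir208a (1542 and 5865 CPM) and Mir499 (4354 and 2641 CPM), both encoded in myosin genes, were present, while Mir1a-2 had 141 and 67 counts, and Mir1a-1, Mir133a-1 and Mir133a-2 did not exceed 11 counts in either library. The erythroid list (Mir451a, Mir144 and Mir486) amounted to 1.15% of counts in replicate 1 and 9.56% in replicate 2, the fibroblast list to 1.13% and 0.259%, the smooth muscle list to 5.07% and 4.45% and the neuron list to 0.0297% and 0.00971%, with the Mir124a genes and Mir9-2 at 0. Some markers are numbered copies, such as the Mir1a, Mir133a, Mir199a, Mir124a, Mir9 and Mir128 genes. Reads of a mature sequence that copies share may be among those with several mapping places. Low counts of such markers, and the shares of their lists, are thus uncertain as levels of the microRNAs. In bulk tissue, fewer cells of a type and less RNA per cell cannot be told apart. All intervals are 95% exact intervals and cover counting error only, since these tables hold no molecular identifiers.

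The family held 4133 counts in replicate 1, or 0.170% of the library's microRNA reads (interval 0.165 to 0.176), and 4444 counts in replicate 2, or 0.160% (0.156 to 0.165). The mean was 0.165% ± 0.00711 (SD, n = 2), a total of 1654 CPM. A gene was called detected from 10 counts in each library, a limit that 5 of the 6 genes passed, as did 306 of all 2202. Since reads of a sequence made by 2 genes may map to several places, the levels of the Mir181a and Mir181b genes are levels of the reads that could be placed, and are uncertain as levels of the microRNA; those of Mir181c and Mir181d rest on sequences made by 1 gene.

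Mir181d, whose 5p arm comes from this gene alone, had 1652 counts in replicate 1 and 1969 in replicate 2, or 681 and 711 CPM (mean 696 ± 20.8, SD, n = 2), and ranked 84th of 2202 genes by mean CPM. Both libraries gave it the highest count of the family. Mir181b-2 had 1110 and 1063 counts, or 458 and 384 CPM (mean 421 ± 52.4), and ranked 91st. Mir181c, the family member reported in rat heart mitochondria, had 1053 and 872 counts, or 434 and 315 CPM (mean 375 ± 84.5), and ranked 94th. Mir181b-2 lay above Mir181c in each library, although their ranges over the libraries overlapped, and both lay below Mir181d in each library.

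Mir181a-2 had 156 counts in replicate 1 and 379 in replicate 2, or 64.3 and 137 CPM (mean 101 ± 51.2, SD, n = 2), and ranked 145th. Mir181a-1 had 156 and 152 counts, or 64.3 and 54.9 CPM (mean 59.6 ± 6.70), and ranked 167th. The Mir181a genes had the same count in replicate 1, so their order rests on replicate 2, while both lay below Mir181c and above Mir181b-1 in each library. Mir181b-1 had 6 counts in replicate 1 and 9 in replicate 2, or 2.47 and 3.25 CPM (mean 2.86 ± 0.547), ranked 339th and was not detected by the limit of 10 counts. The median of the 306 detected genes was 80.1 CPM, above Mir181a-1 and below Mir181a-2. Reads of this size class cover a mature microRNA rather than the hairpin, and the hairpins are 72 to 89 bases long; per base of hairpin the order of the 6 genes was the same, with Mir181d at 9.67 CPM per base, Mir181b-2 at 4.73, Mir181c at 4.21, Mir181a-2 at 1.32, Mir181a-1 at 0.685 and Mir181b-1 at 0.0358.

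**Figure D2:**
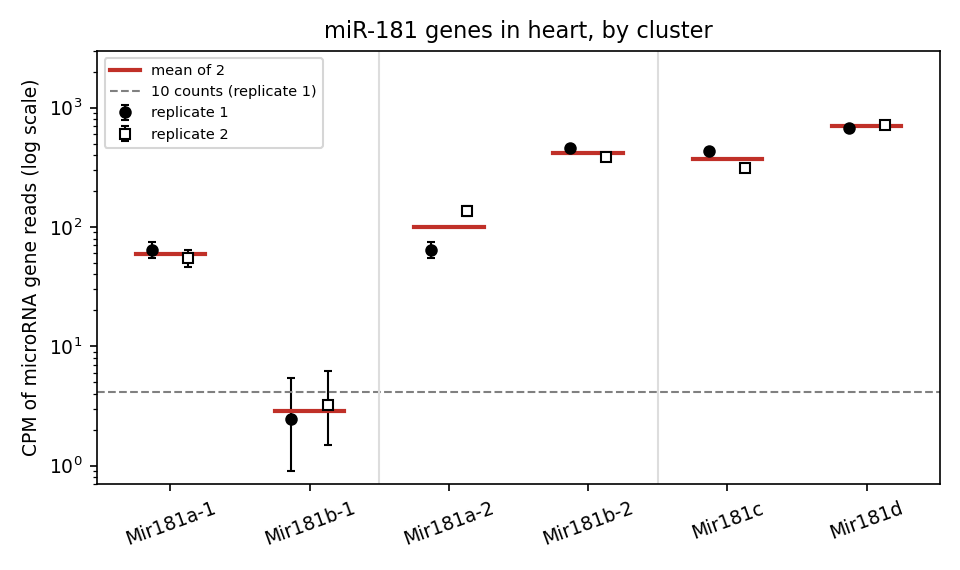
CPM of own-strand reads (log scale) for the 6 miR-181 genes, grouped by cluster from chromosome 1 to chromosomes 2 and 8. Filled circles are replicate 1 and open squares replicate 2, with 95% exact intervals of the counts, red lines are means of 2 and the dashed line is 10 counts in replicate 1 (4.12 CPM); Mir181b-1 lies below that line in both libraries and Mir181d is highest at 681 and 711 CPM.

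The cluster on chromosome 8 (Mir181c and Mir181d) gave most of the family's counts, 65.4% in replicate 1 (interval 64.0 to 66.9) and 63.9% in replicate 2 (62.5 to 65.3). The cluster on chromosome 2 (Mir181a-2 and Mir181b-2) gave 30.6% (29.2 to 32.1) and 32.4% (31.1 to 33.8). The cluster on chromosome 1 (Mir181a-1 and Mir181b-1) gave 3.92% (3.35 to 4.56) and 3.62% (3.09 to 4.21). These shares differed by less between the libraries than between the clusters. They are shares of placed reads. The 5p sequences of the chromosome 8 cluster are each made by 1 gene, and those of the other clusters by 2. How far this contributed to the lead of chromosome 8 was not tested. In CPM the cluster sums were 66.8 in replicate 1 and 58.1 in replicate 2 on chromosome 1, 522 and 521 on chromosome 2, and 1116 and 1026 on chromosome 8.

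Within a cluster the genes were counted at unequal levels, and the Mir181a gene led on chromosome 1 but the Mir181b gene on chromosome 2. On chromosome 1, counts of Mir181a-1 over Mir181b-1 stood at a ratio of 26.0 in replicate 1 (interval 11.7 to 71.9) and 16.9 in replicate 2 (8.67 to 37.6), so Mir181a-1 led in both libraries. On chromosome 2, Mir181a-2 over Mir181b-2 stood at 0.141 in replicate 1 (0.118 to 0.166) and 0.357 in replicate 2 (0.316 to 0.401), so Mir181b-2 led in both. That ratio was 2.54-fold higher in replicate 2, and the intervals of the libraries did not overlap. On chromosome 8, Mir181c over Mir181d stood at 0.637 (0.589 to 0.689) and 0.443 (0.408 to 0.480), with Mir181d ahead in both libraries and intervals that did not overlap. These ratios do not depend on how the libraries are scaled. On chromosomes 1 and 2 they compare only the reads that could be placed, and are uncertain as ratios of the microRNAs.

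The paralogs that share a 5p sequence were set side by side next, a comparison chosen after their counts had been seen. Of the counts placed on the Mir181b genes, 99.5% were on Mir181b-2 in replicate 1 (interval 98.8 to 99.8) and 99.2% in replicate 2 (98.4 to 99.6), or 185 and 118 counts for each count of Mir181b-1. Of those placed on the Mir181a genes, 50% were on Mir181a-2 in replicate 1 (44.3 to 55.7) and 71.4% in replicate 2 (67.3 to 75.2). The Mir181b counts were thus nearly all on 1 gene in both libraries, and the Mir181a counts were divided evenly in replicate 1 only. The read sequences are not in the count tables, so which arm the reads of a gene came from, and whether those on Mir181b-2 reach past the shared stretch, was not tested.

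In the RefSeq table, 38 pairs of counted genes share a mature sequence that no further gene makes, and 20 of these pairs held at least 20 counts in each library. The shared sequence could be of either arm, and Mirlet7c-2 was paired with both Mirlet7c-1 and Mirlet7a-1. The gene with more counts held a median of 72.9% of its pair's counts. The Mir181b pair ranked 1st of the 20, with a mean of 99.3% on Mir181b-2, ahead of the let-7 pair Mirlet7f-2 and Mirlet7f-1 (96.9%), the only other pair with a mean over 95%. In replicate 1 alone Mir26a-2 held 98.7% of its pair with Mir26a-1, above the 97.0% of Mirlet7f-2, and in replicate 2 it held 90.9%. The Mir181a pair ranked 16th, with a mean of 60.7% on Mir181a-2.

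**Figure D3:**
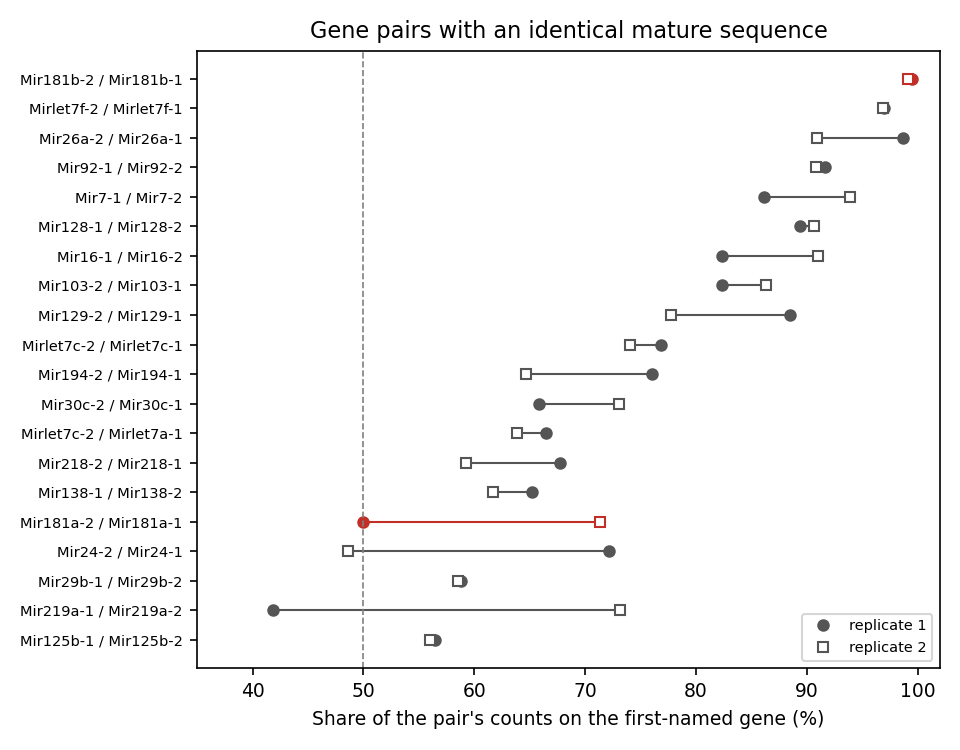
Share of a gene pair's counts, in percent, that was on the first-named gene, for the 20 pairs with an identical mature sequence, ordered by the mean of 2 libraries. Circles are replicate 1 and squares replicate 2, miR-181 pairs are red, and the dashed line marks an even division; Mir181b-2 holds 99.5% and 99.2% of its pair, and Mir181a-2 holds 50% and 71.4%.

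Between the libraries, 3 of the 5 detected miR-181 genes differed beyond counting error by the exact binomial test (two-sided, p adjusted over 306 genes by the Benjamini-Hochberg method). This test compares 2 libraries and no conditions, and it called 61.1% of all detected genes, so the family's count lies near the background. Mir181c was 1.38-fold higher in replicate 1 (interval 1.26 to 1.51, adjusted p = 5.7e-12) and Mir181b-2 1.19-fold higher in replicate 1 (1.10 to 1.30, adjusted p = 9.2e-05), against 41.5% of all genes called higher there. Mir181a-2 was lower in replicate 1, at 0.470-fold of replicate 2 (0.388 to 0.568, adjusted p = 6.4e-16), against 19.6% of all genes called lower there. Mir181a-1 (1.17-fold, 0.932 to 1.48, adjusted p = 0.24) and Mir181d (0.959-fold, 0.897 to 1.02, adjusted p = 0.28) did not pass the test.

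Only Mir181a-2 differed by at least 1.5-fold as well, as did 36.6% of all genes, and its absolute log2 ratio lay at percentile 85.6 of the detected genes. The median absolute log2 ratio was 0.25 for the 5 genes and 0.46 for all 306. Scaled by library totals, the median detected gene had a log2 ratio (replicate 1 over replicate 2) of 0.19, which TMM factors moved to -0.03 and DESeq2 factors to 0. Relative to that median, the log2 ratios were -1.28 for Mir181a-2, -0.25 for Mir181d, 0.04 for Mir181a-1, 0.06 for Mir181b-2 and 0.27 for Mir181c. With TMM or DESeq2 factors Mir181b-2 no longer passed the test (adjusted p = 0.65 and 0.39), Mir181d passed it (adjusted p = 1.8e-08 and 4.6e-07), and the calls of Mir181a-2 and Mir181c held. With a negative binomial test in edgeR that takes its spread from both libraries, with a biological coefficient of variation of 0.383, none of the 5 genes passed (each adjusted p = 1), nor did any at an unadjusted p under 0.05, and 0.654% of all genes passed; 17 of 306 had an unadjusted p under 0.05. Against the same 41.5% of all genes called higher and 19.6% called lower, the detected markers called higher in replicate 1 numbered 3 of 4 for cardiac muscle, 2 of 2 for smooth muscle, 3 of 4 for fibroblasts, 2 of 2 for neurons and 0 of 3 for the erythroid list, whose 3 markers were all lower, as Mir181a-2 was. The remaining detected cardiac marker, Mir208a, was called lower in replicate 1, at a log2 ratio of -1.93 (3739 and 16249 counts). Together the 7 cardiac genes made up less of replicate 1 (0.605%) than of replicate 2 (0.858%), opposite to the calls of most of their markers. With TMM or DESeq2 factors 1 of the 2 smooth muscle markers was lower instead, and the numbers of markers called in the other 4 lists were the same. The part of these cell types in the differences of the miR-181 genes was not tested.

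**Figure D4:**
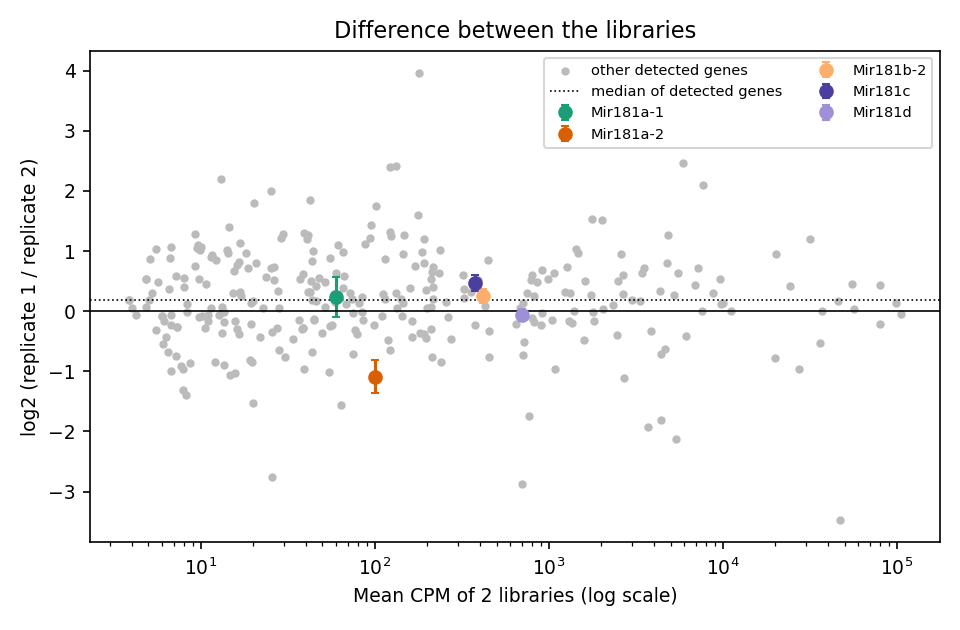
The log2 ratio of replicate 1 over replicate 2 against the mean CPM of 2 libraries (log scale) for the 306 detected genes. Coloured points are the 5 detected miR-181 genes with 95% exact intervals, grey points the others, and the dotted line is the median of 0.19; Mir181a-2 lies at -1.09, and the other miR-181 genes lie between -0.06 and 0.46.

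The family was set beside microRNAs of the cell types in which it is best known. The leukocyte list had 6 of 7 genes detected and amounted to 0.797% of counts in replicate 1, against 0.611% in replicate 2, above the family's share in both. Both shares leave out reads with several mapping places, which may include reads of the Mir181a and Mir181b genes. The order therefore holds for placed reads only. It was led by Mir155, induced in activated immune cells (2088 and 2027 CPM), the lymphocyte-enriched Mir150 (1897 and 1335 CPM) and Mir146 (1576 and 952 CPM), known as Mir146a and a brake on NF-kappaB signalling. Of the 6 genes, 4 were higher in replicate 1 by the binomial test, none was lower and 2 did not pass, beside 41.5% of all genes called higher and 19.6% called lower. The median log2 ratio was 0.57 against 0.19 over all detected genes. With TMM or DESeq2 factors 4 were still higher, and Mir155 and Mir342 were lower. The endothelium list had 3 of 4 genes detected and held 7.70% and 8.82% of counts, with Mir126a at 73653 and 85269 CPM, Mir221 at 3206 and 2812 CPM and Mir222 at 147 and 80.9 CPM. Mir222 was higher and Mir126a lower in replicate 1 under all 3 scalings, while Mir221 was higher with library totals only, at a log2 ratio of 0.19, equal to that of the median gene, and did not pass with TMM or DESeq2 factors (adjusted p = 0.27 and 0.98).

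Of 7 genes whose products have been reported in heart mitochondria, 6 were detected, Mir181c among them. Mir378a, hosted by a mitochondrial coactivator gene, stood at 103585 and 94209 CPM, the fibroblast-rich Mir21a at 10018 and 1810 CPM and Mir499 at 4354 and 2641 CPM. The hypoxia-induced Mir210 (346 and 406 CPM) lay within the range of Mir181c (434 and 315 CPM). By the binomial test 5 of the 6 detected genes of this list were higher in replicate 1, Mir181c included, and Mir210 was lower, beside 41.5% of all genes called higher and 19.6% called lower. With TMM or DESeq2 factors 4 were higher and 2 lower, since Mir378a turned from a log2 ratio of 0.14 with library totals to -0.08 with TMM and -0.05 with DESeq2 factors. The list's share of counts was 11.9% in replicate 1 and 9.94% in replicate 2.

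The annotated microRNA genes within 50 kb of the family lie on chromosome 8. The cluster of Mir23a, Mir27a and Mir24-2, known from endothelium and muscle, starts 29556 bases from Mir181c on the opposite strand. Mir23a stood at 29592 CPM in replicate 1 and 42856 in replicate 2, Mir27a at 1932 and 945 CPM, and Mir24-2 at 245 and 140 CPM. Mir181c and Mir181d therefore lay below Mir23a and Mir27a and above Mir24-2 in both libraries, although Mir24-2 shares a mature sequence with Mir24-1 and its level is uncertain. Mir27a and Mir24-2 were higher in replicate 1 by the binomial test, as Mir181c was, and Mir23a was lower, also with TMM or DESeq2 factors. Gm25110, 21838 bases from Mir181d, and Mir3074-2, opposite Mir24-2, had no own-strand count.

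The detected genes nearest to each member in level were found by the Euclidean distance in log2(CPM + 1) over the 2 libraries. Mir181d lay nearest to Mir10b (697 and 673 CPM, distance 0.0844) and Mirlet7a-1, Mir181b-2 to Mirlet7c-1 (443 and 418 CPM, 0.130) and Mir872, and Mir181c to Mir872 (461 and 321 CPM, 0.0894) and Mir30c-1. Mir181a-1 lay nearest to Mir669o (64.8 and 53.8 CPM, 0.0297) and Mir598. Mir181a-2 had no such close neighbour: the nearest were Mir24-1 (94.5 and 148 CPM, 0.559) and Mir3058 (0.591). The levels of the let-7 genes, Mir30c-1 and Mir24-1 are uncertain for the reason given for the Mir181a and Mir181b genes, since other genes make the same mature sequence.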

How the data were processed

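Short RNA from heart tissue was counted in 2 libraries of 1 group. The authors deposited counts per microRNA gene without normalization; per the labels the assembly is mm10, and the deposited listing names annotation M21. For the aligner and counter nothing is stated in the labels or listings used here. The tables have 3 count columns, identified from their values as either, own and opposite strand, and 4 lines that name no gene. These lines held 70.0% and 65.3% of the own-strand column and were left out of totals.

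Own-strand counts were scaled to CPM. All 2202 identifiers matched M21 symbols. Each gene's counts were compared between libraries by the exact binomial test (two-sided, conditional on the totals), with Benjamini-Hochberg adjustment over genes with at least 10 counts in both. With 1 group there is no contrast between conditions to test. A chi-square statistic of 510 per degree of freedom showed that the tables are not copies. Alternatives were TMM, DESeq2 factors, edgeR's negative binomial exact test with its common dispersion, other count minimums, a 1.5-fold minimum, the either-strand column (in which overlapping genes such as Mir126a lose nearly all counts), other denominators, hairpin length and each library alone. The calls of the gene lists under TMM and DESeq2 factors were added after seeing the data. The tests were checked on simulated data. For the binomial test the simulated counts varied by counting error only, which these libraries exceed. Recovery of changed genes by the negative binomial test was simulated with a fixed, smaller spread. Its recovery at the spread used here was not checked.

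Named are all members, the 2 nearest genes in level, microRNA genes within 50 kb and up to 3 leading genes per list. Members and lists were chosen with earlier results of these data known; Mir210, Mir342, the let-7f and Mir26a pairs and single cell type markers outside that rule were named after their values were seen. Mir146a was matched as Mir146. Software was Python 3.11.15, numpy 2.4.6, pandas 2.3.3, scipy 1.17.1, matplotlib 3.10.9, R 4.3.3, edgeR 4.0.16 and DESeq2 1.42.0.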

Additional observations from a re-analysis of the deposited data

Results flagged for a closer look

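Reads with several mapping places entered no comparison and stand out as unused signal: 3992614 were listed for replicate 1 and 3410568 for replicate 2, where a count of 0 would allow at most 3 reads. The tables do not assign them to genes, so how many carry a miR-181 sequence was not tested.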

How the results depend on the processing

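The family share was 0.222% with either-strand totals, 0.0682% with multiply mapped reads added to the denominator and 0.0534% of all reads, and 0.160% to 0.170% in 1 library alone; these follow from the denominators. The 3 genes called became 1 with a 1.5-fold minimum and 0 with the negative binomial test, and the 187 of all genes called became 112 and 2. The negative binomial test took its spread from the same differences it tested, which keeps its calls few. The count stayed at 3 of 5 with TMM factors, DESeq2 factors and either-strand counts, as 1 higher and 2 lower in replicate 1. All genes divided into 84 higher and 97 lower with TMM and 88 and 94 with DESeq2, against 127 and 60. With either-strand counts 87 were higher and 71 lower, of 282 tested. The members' either-strand counts equal their own-strand counts, so only the totals changed there. In each of these settings Mir181d replaced Mir181b-2 among the genes called. With either-strand counts their adjusted p was 3.3e-05 and 0.14 by the binomial test. Of 15 ordered pairs of members, 14 to 15 kept their order in 1 library alone, with the tie of the Mir181a genes in replicate 1 as the exception. In 1 library alone the ratios ran from 16.9 to 26.0 for Mir181a-1 over Mir181b-1, from 0.141 to 0.357 for Mir181a-2 over Mir181b-2 and from 0.443 to 0.637 for Mir181c over Mir181d. No paired analysis was possible because the libraries form 1 group. With 6 and 9 counts, depth limits what can be said of Mir181b-1.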
